A study of Homo sapiens with 9 samples.

Results

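The WNT pathway was followed through 10 named genes of the 26485 in the deposited tables: the ligands WNT5A and WNT5B, the secreted inhibitor DKK1, the Frizzled receptors FZD2 and FZD6, the co-receptors LRP5 and LRP6, the scaffold protein AXIN2 and the nuclear factors TCF7L2 and LEF1. They were chosen by name as genes of this pathway, with earlier results of these data known. All 10 had a row in both tables. RNA came from MDA-MB-231, an established human line of triple-negative breast cancer (TNBC), grown in DMEM with fetal bovine serum. All cells stably expressed a short hairpin RNA (shRNA). The control cells expressed a non-specific (NS) shRNA, and the other cells expressed ASAH1 shRNA #1 or ASAH1 shRNA #2, which are independent hairpins against ASAH1, the acid ceramidase that cleaves ceramide in the lysosome. Each group had 3 biological replicates, and the same 3 NS shRNA libraries served as the control for both hairpins. The control is thus a single non-specific hairpin in a single cell line.

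WNT proteins are secreted lipid-modified ligands that bind Frizzled receptors on neighboring cells. In the canonical branch they also engage the co-receptor LRP5 or LRP6, the complex of AXIN, APC and GSK3 stops marking beta-catenin for destruction, and beta-catenin enters the nucleus and acts with TCF and LEF proteins. DKK1 blocks LRP5 and LRP6, whereas WNT5A and WNT5B mostly act through routes that do not need beta-catenin and that control cell polarity and movement. AXIN2, LEF1 and DKK1 are themselves textbook target genes of beta-catenin.

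The libraries held between 23806003 and 49659106 reads on genes. ASAH1 had 4634 to 4725 normalized counts in the NS shRNA libraries, 1327 to 1427 with shRNA #1 and 737 to 782 with shRNA #2, so the targeted transcript was lower with both hairpins and lowest with shRNA #2. The library of shRNA #1 replicate 1 was the shallowest. VIM, the mesenchymal filament gene of this line, had 70086 to 72081 normalized counts with NS shRNA, 57322 to 60270 with shRNA #1 and 43556 to 45049 with shRNA #2, and was called lower with both hairpins (log2 fold change -0.27, limma adjusted p = 3.09e-04, and -0.67, limma adjusted p = 6.32e-07). EGFR, another gene known in this line, was called higher with both (1.18, limma adjusted p = 9.02e-05, and 1.29, limma adjusted p = 2.58e-05). CD44 was not called with either (-0.02 and -0.13). ESR1 and PGR, the hormone receptors that a triple-negative line lacks, had 0 to 2 reads in each library. ERBB2, which encodes HER2, was not absent. It had 3322 to 3547 normalized counts with NS shRNA, 2044 to 2184 with shRNA #1 and 2269 to 2750 with shRNA #2. Of 8 markers of other cell types, PTPRC, CD3E and CDH5 had 0 to 8 reads per library. The summed normalized count of the 8 markers was 3943 to 4504 with NS shRNA, 3916 to 4732 with shRNA #1 and 1972 to 2155 with shRNA #2. CD68, a macrophage marker, made up most of the sum with NS shRNA (2143 to 2655) and shRNA #1 (2495 to 3380) and had 833 to 1072 normalized counts with shRNA #2. Of the 5 markers tested with shRNA #1, CD68 was called higher (log2 fold change 0.29) and PECAM1 (-0.59), PDGFRB (-1.03) and COL3A1 (-2.32) lower. With shRNA #2, CD68 (-1.38), PECAM1 (-0.91) and PDGFRB (-1.22) were called lower and none higher. The part of these markers in the results was not tested. In RNA from a whole culture, fewer cells of a kind and less RNA per cell cannot be told apart.

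The 10 genes covered a wide range of levels in the control cells. The level was taken as RPKM, the reads of a gene scaled by its annotated exon length and by the library's total reads on genes, with n = 3 libraries. DKK1 stood highest at 218 ± 11.3 RPKM (SD), followed by LRP5 at 53.3 ± 2.22, FZD6 at 27.3 ± 1.71 and FZD2 at 22.5 ± 1.52. WNT5B was at 7.12 ± 0.82 RPKM, LRP6 at 6.08 ± 0.49 and TCF7L2 at 4.42 ± 0.34. The WNT5B and LRP6 libraries overlapped, and no other neighbors in this order did. AXIN2 was at 1.10 ± 0.03 RPKM. LEF1 at 0.0847 ± 0.0202 RPKM and WNT5A at 0.0270 ± 0.0040 RPKM were close to absent. When the length of the canonical transcript was used instead, TCF7L2 (7.30 RPKM) passed LRP6 (6.14 RPKM), and the other places did not change.

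**Figure D1:**
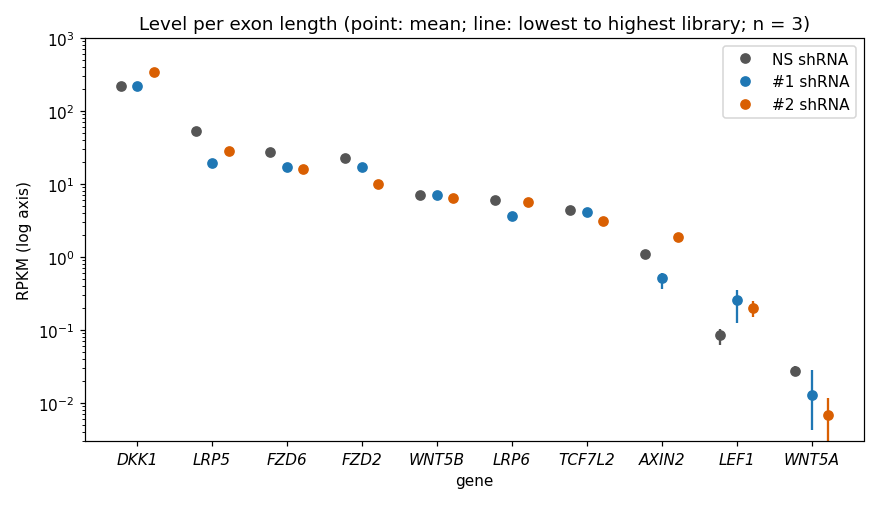
Level of the 10 genes in RPKM on a log axis, ordered by the NS shRNA mean, with points for the mean of 3 libraries and lines from the lowest to the highest library (the line of WNT5A with shRNA #2 goes down to a library with 0 reads, below the axis). DKK1 lies at 218 RPKM in the control cells and WNT5A at 0.0270 RPKM.

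Against NS shRNA, each hairpin was compared in its own deposited table by limma on log2(normalized count + 1), two-sided, with Benjamini-Hochberg adjustment over all genes whose normalized counts averaged 10 or more. WNT5A was below that mean, so 9 of the 10 genes were tested. With shRNA #1, 6 of the 9 passed an adjusted p of 0.05. LEF1 was higher, where 32.8% of the 14341 genes tested were called higher, and FZD2, FZD6, LRP5, LRP6 and AXIN2 were lower, where 33.3% of all genes were called lower. With shRNA #2, 7 of the 9 passed: DKK1, AXIN2 and LEF1 were higher, where 33.5% of the 14250 genes tested were called higher, and FZD2, FZD6, LRP5 and TCF7L2 were lower, where 33.4% were called lower. The median log2 fold change of the 9 genes was -0.42 with shRNA #1 and -0.00 with shRNA #2, while that of all genes was 0.00 and 0.01. With such shares of all genes called in each direction, the counts are no result about the 9 genes by themselves. In the text below, normalized counts per library are on 1 scale for all 9 libraries and are listed from replicate 1 to replicate 3, and fold changes come from the fit of each comparison.

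**Figure D2:**
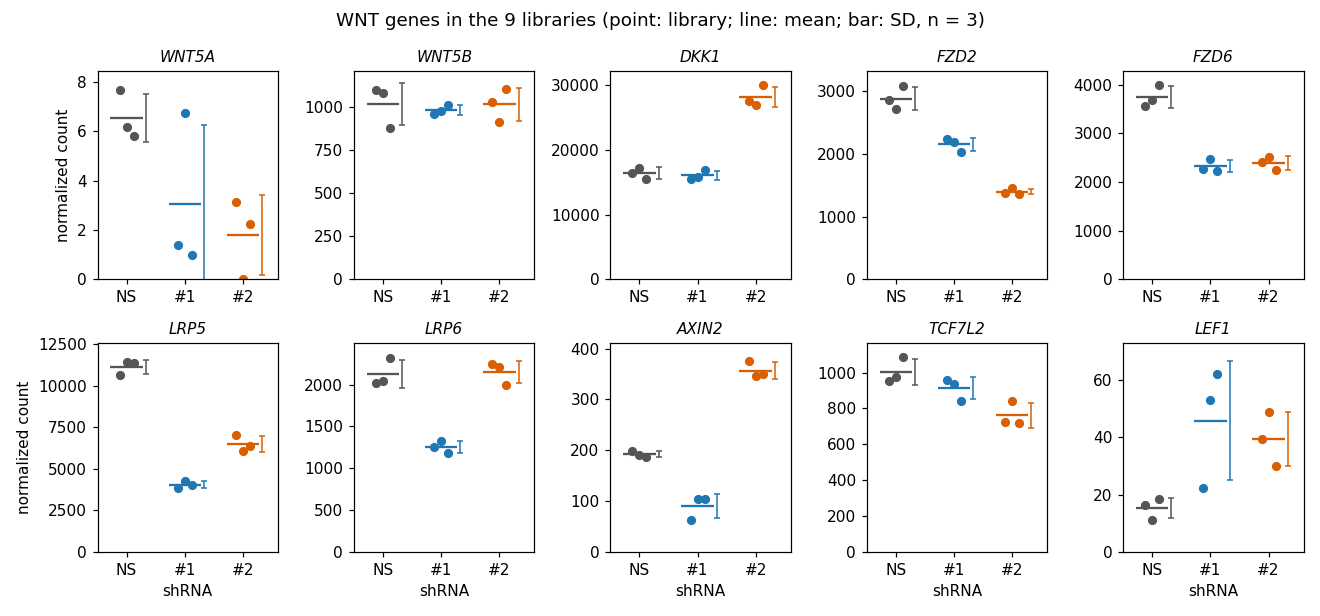
Normalized count of each of the 10 genes in every library (points), with the group mean (line) and SD (bar, n = 3) for NS shRNA, shRNA #1 and shRNA #2; each axis starts at 0 and the SD bar of WNT5A with shRNA #1 is cut there. LRP5, FZD2 and FZD6 are lower with both hairpins, LEF1 is higher with both, and AXIN2 lies below the control with shRNA #1 (63.0 to 103) and above it with shRNA #2 (346 to 376).

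WNT5A, the ligand best known for signaling without beta-catenin, lies on chromosome 3 of hg38 from 55465715 to 55490539 on the minus strand. It had 7, 6 and 6 reads in the NS shRNA libraries, 1, 8 and 1 reads with shRNA #1 and 3, 0 and 3 reads with shRNA #2. The control and shRNA #1 libraries overlapped, and the shRNA #2 libraries all lay below the control. Summed over the group, the share of all reads that fell on WNT5A was 0.537 times the control with shRNA #1 (95% exact interval 0.223 to 1.21) and 0.251 times with shRNA #2 (0.0819 to 0.653). These intervals cover counting error only. In a fit without the filter on low counts, WNT5A with shRNA #2 had a log2 fold change of -1.68 (adjusted p = 0.0242 from limma), but DESeq2 on the same reads gave an adjusted p of 0.121.

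WNT5B, its close paralog on chromosome 12 (1529891 to 1647212, plus strand), was well expressed. Its normalized counts were 1100, 1080 and 881 with NS shRNA, 959, 978 and 1013 with shRNA #1 and 1030, 913 and 1105 with shRNA #2. The 3 groups overlapped. The log2 fold change was -0.05 with shRNA #1 (95% interval -0.24 to 0.15) and -0.00 with shRNA #2 (-0.23 to 0.22). A difference inside those bounds could not be measured at this spread.

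Of the 19 WNT ligand genes, 8 were tested with shRNA #1, and only WNT7B was called, as lower (12.5%, beside 33.3% of all genes). With shRNA #2, 7 were tested. WNT9A and WNT10B were called higher (28.6%, beside 33.5% of all genes) and WNT3, WNT7B and WNT10A lower (42.9%, beside 33.4%). WNT7B, a ligand that can act through beta-catenin, had a log2 fold change of -0.38 (adjusted p = 3.17e-04 from limma) with shRNA #1 and -0.83 (adjusted p = 3.56e-06 from limma) with shRNA #2. In the control cells WNT5B and WNT7B gave 35.2% and 35.0% of the summed RPKM of all WNT genes, and WNT5A gave 0.134%. The near-equal shares depend on the length used. With the length of the canonical transcript, WNT5B stood at 13.5 RPKM and WNT7B at 9.12 RPKM in the control cells. PORCN, the enzyme that adds the lipid to WNT proteins, was called in opposite directions, with a log2 fold change of 0.24 with shRNA #1 (adjusted p = 0.00502 from limma) and -0.38 with shRNA #2 (adjusted p = 5.44e-04 from limma). WLS, the carrier that takes WNT proteins to the surface, was called higher with shRNA #1 and not called with shRNA #2.

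DKK1, the secreted blocker of LRP5 and LRP6, lies on chromosome 10 from 52314281 to 52318042 on the plus strand. Its normalized counts were 16391, 17251 and 15465 with NS shRNA, 15531, 15725 and 16853 with shRNA #1, and 27585, 26922 and 29922 with shRNA #2. All shRNA #2 libraries lay above all others, and the shRNA #1 libraries lay among the controls. DKK1 rose 1.72-fold with shRNA #2 (log2 fold change 0.78 with a standard error, SE, of 0.06, limma adjusted p = 1.55e-06). With shRNA #1 the log2 fold change was -0.03, with a 95% interval from -0.15 to 0.09. Its level per length was 218 ± 11.3 RPKM (SD, n = 3) in the control cells, 216 ± 9.52 with shRNA #1 and 342 ± 17.4 with shRNA #2. The size of the difference depends on the scaling. With TMM-effective library sizes in place of total reads, the means were 212, 209 and 365 RPKM.

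The 250 bases upstream of the DKK1 start are shown because DKK1 is both a WNT inhibitor and a target gene of TCF and LEF proteins, and those of LRP5 because that gene fell with both hairpins. They were taken from RefSeq promoters on GRCh38.p14, at chr10:52314031-52314280 and chr11:68312341-68312590, both on the plus strand. Capitals mark CTTTGAT or CTTTGAA, the core letters that TCF and LEF proteins are known to bind, searched on both strands.
DKK1: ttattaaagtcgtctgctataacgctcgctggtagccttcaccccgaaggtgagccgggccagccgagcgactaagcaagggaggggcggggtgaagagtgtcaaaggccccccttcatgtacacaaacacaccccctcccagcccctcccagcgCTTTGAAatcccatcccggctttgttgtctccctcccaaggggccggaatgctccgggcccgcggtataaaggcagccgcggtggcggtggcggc
LRP5: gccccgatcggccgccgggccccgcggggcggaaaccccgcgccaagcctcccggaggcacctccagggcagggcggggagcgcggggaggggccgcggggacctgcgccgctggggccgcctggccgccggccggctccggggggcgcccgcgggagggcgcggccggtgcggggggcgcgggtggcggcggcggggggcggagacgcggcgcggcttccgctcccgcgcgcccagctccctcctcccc
The DKK1 window held 1 match, CTTTGAA, whose first base lies 95 bases upstream of the start, and the LRP5 window held none. The windows of WNT5A, WNT5B, TCF7L2 and LEF1 held none either. Those of WNT5A, WNT5B and LEF1 lie upstream of a RefSeq start inside the gene span given here, so sequence upstream of the outermost start was not searched. Of 27305 promoters, 6.03% held at least 1 such match in the same window (2.28% CTTTGAT and 3.88% CTTTGAA). The LRP5 window was 87.2% G and C with 43 CpG dinucleotides and the DKK1 window 62.8% with 18, where the medians over all promoters were 58.0% and 11. A match of letters is a description and not a binding site. Sequences of AXIN2, FZD2, FZD6 and LRP6 were not used here.

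The other secreted antagonists were mostly low. Of the 13 genes on that list, 5 were tested. With shRNA #1, DKK3 and SOST were called higher (40.0%, beside 32.8% of all genes) and none lower. The list's median log2 fold change was -0.03. With shRNA #2, DKK1 was called higher (20.0%, beside 33.5% of all genes) and SOST and NOTUM lower (40.0%, beside 33.4%), with a median of -0.19. SOST, which encodes sclerostin, another blocker of LRP5 and LRP6, thus went in opposite directions: its log2 fold change was 1.25 (adjusted p = 1.87e-05 from limma) with shRNA #1 and -0.95 (adjusted p = 4.43e-04 from limma) with shRNA #2.

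LRP5 showed the largest fall among the 9 genes tested with shRNA #1, and it fell with both hairpins. It is a co-receptor for canonical WNT ligands on chromosome 11, from 68312591 to 68449275 on the plus strand. Its normalized counts were 10623, 11417 and 11348 with NS shRNA, 3823, 4245 and 4037 with shRNA #1, and 7048, 6100 and 6358 with shRNA #2. The 3 groups did not overlap. LRP5 was 2.76-fold lower with shRNA #1 (log2 fold change -1.46, SE 0.05, limma adjusted p = 4.02e-08) and 1.71-fold lower with shRNA #2 (-0.78, SE 0.06, limma adjusted p = 2.41e-06).

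LRP6, the paralog of LRP5 on chromosome 12 (12116025 to 12267044, minus strand), had 2020, 2047 and 2318 normalized counts with NS shRNA and 1252, 1326 and 1185 with shRNA #1. With shRNA #2 it had 2244, 2213 and 1999, within the range of the control apart from 1 library slightly below it. LRP6 was 1.69-fold lower with shRNA #1 (log2 fold change -0.76, SE 0.07, limma adjusted p = 1.08e-05). With shRNA #2 the log2 fold change was 0.02 (95% interval -0.15 to 0.18). The summed level of both co-receptors was 59.4 ± 2.53 RPKM (SD, n = 3) in the control, 23.2 ± 1.11 with shRNA #1 and 34.0 ± 2.26 with shRNA #2, and these 3 groups did not overlap.

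FZD2 is a single-exon receptor gene on chromosome 17, from 44557484 to 44561262 on the plus strand, whose protein is known to bind WNT5A and WNT3A among other ligands. It had 2848, 2711 and 3076 normalized counts with NS shRNA, 2235, 2180 and 2035 with shRNA #1 and 1381, 1447 and 1363 with shRNA #2. The groups did not overlap, and the shRNA #2 libraries lay lowest. FZD2 was 1.34-fold lower with shRNA #1 (log2 fold change -0.42, SE 0.06, limma adjusted p = 2.54e-04) and 2.06-fold lower with shRNA #2 (-1.04, SE 0.06, limma adjusted p = 3.31e-07).

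FZD6, a receptor known for roles in planar cell polarity, lies on chromosome 8 from 103298433 to 103332866 on the plus strand. It had 3564, 3687 and 3994 normalized counts with NS shRNA, 2277, 2477 and 2237 with shRNA #1 and 2407, 2525 and 2239 with shRNA #2. Both hairpins lay below the control, and they overlapped with each other. FZD6 was 1.61-fold lower with shRNA #1 (log2 fold change -0.69, SE 0.06, limma adjusted p = 8.98e-06) and 1.57-fold lower with shRNA #2 (-0.65, SE 0.07, limma adjusted p = 1.08e-05).

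Among the 16 receptors and co-receptors, 13 were tested. With shRNA #1, PTK7 was called higher and 8 genes lower, with a median log2 fold change of -0.44. With shRNA #2, FZD3, ROR1 and RYK were called higher (23.1%, beside 33.5% of all genes) and 6 genes lower (46.2%, beside 33.4%). The median was 0.02. FZD1 fell with both hairpins, with a log2 fold change of -1.42 with shRNA #1 (adjusted p = 8.62e-08 from limma) and -1.36 with shRNA #2 (adjusted p = 4.52e-08 from limma). PTK7, a pseudokinase co-receptor of the polarity route, was the only gene of the list called in opposite directions: it was 1.62-fold higher with shRNA #1 (adjusted p = 1.18e-04 from limma) and 6.39-fold lower with shRNA #2 (adjusted p = 4.75e-08 from limma). The summed level of FZD1 to FZD10 was 90.0 ± 2.95 RPKM (SD, n = 3) in the control, 57.5 ± 1.38 with shRNA #1 and 57.2 ± 1.30 with shRNA #2. Both hairpins lay below all control libraries, also with TMM-effective library sizes (87.5, 55.5 and 61.0 RPKM). FZD6 gave 30.3% of the control sum, 29.9% with shRNA #1 and 27.7% with shRNA #2, and FZD2 gave 25.1%, 29.6% and 17.4%.

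**Figure D3:**
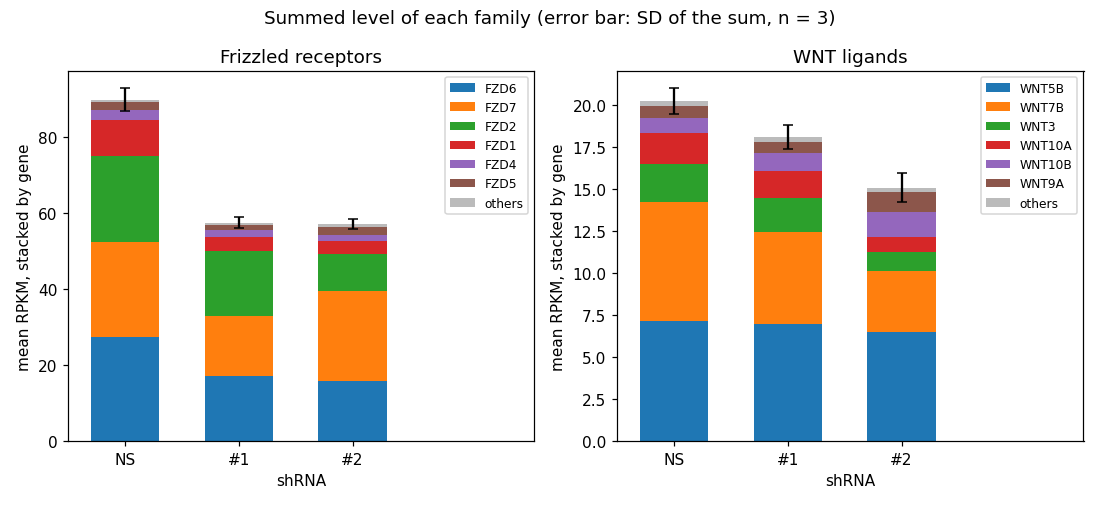
Mean RPKM of the Frizzled receptors (left) and the WNT ligands (right), stacked by gene, with the SD of the sum over 3 libraries, for NS shRNA, shRNA #1 and shRNA #2. The Frizzled sum is 90.0 RPKM in the control and 57.5 and 57.2 RPKM with the hairpins, and the WNT ligand sum is 20.2, 18.1 and 15.1 RPKM. With TMM-effective library sizes the WNT ligand sum is 19.7, 17.5 and 16.1 RPKM, and the libraries of the hairpins overlap.

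The list of receptor turnover held 11 genes. With shRNA #1, 7 were tested, and LGR4 and KREMEN1 were called lower and none higher (median log2 fold change -0.17). With shRNA #2, 6 were tested, and RNF43, ZNRF3 and KREMEN2 were called higher and LGR4 lower (median 0.42). LGR4, a receptor for R-spondins, which protect Frizzled receptors from removal, was 2.74-fold lower with shRNA #1 (limma adjusted p = 4.71e-07) and had a log2 fold change of -0.20 with shRNA #2 (limma adjusted p = 0.0466). The latter call was lost without the filter on low counts (adjusted p = 0.0517) and without NS shRNA replicate 2 or 3 or shRNA #2 replicate 1 or 3 (up to adjusted p = 0.151). RNF43, a ubiquitin ligase that removes Frizzled receptors from the surface, was 1.99-fold higher with shRNA #2 (limma adjusted p = 9.12e-06), and with shRNA #1 its log2 fold change was 0.16 (limma adjusted p = 0.21).

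AXIN2, the inducible scaffold of the beta-catenin destruction complex and a standard reporter gene of canonical WNT signaling, was the only one of the 10 genes called in opposite directions. It lies on chromosome 17 from 65528563 to 65561648 on the minus strand. Its normalized counts were 199, 191 and 187 with NS shRNA, 63.0, 103 and 103 with shRNA #1 and 376, 346 and 350 with shRNA #2. The 3 groups did not overlap. AXIN2 was 2.18-fold lower with shRNA #1 (log2 fold change -1.12, SE 0.19, limma adjusted p = 5.11e-04) and 1.85-fold higher with shRNA #2 (0.89, SE 0.09, limma adjusted p = 1.18e-05). These values rest on 45 to 466 reads per library. The lowest library, shRNA #1 replicate 1, is also the shallowest, and without it the log2 fold change with shRNA #1 was -0.89 (adjusted p = 1.85e-04 from limma). Of the annotated exon bases of AXIN2, 25.3% are shared with another gene model on the same strand, where default htseq-count leaves a read that overlaps more than 1 annotated gene uncounted. Whether the UCSC annotation used for counting holds that model was not analysed here.

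All 18 genes on the list of cytoplasmic transduction were tested. With shRNA #1, 5 were called higher (DVL1, CSNK1A1, TNKS, TNKS2 and AMER1) and 7 lower (median log2 fold change -0.08). With shRNA #2, 9 were called higher and 2, DVL2 and GSK3B, lower (median 0.12). Called higher with both hairpins and leading by size were AMER1, a regulator of the destruction complex (log2 fold change 0.53 and 1.19), DVL1, which carries the signal from Frizzled (0.26 and 0.79), and TNKS, a tankyrase that marks AXIN for turnover (0.33 and 0.58). GSK3B, a kinase of the destruction complex, was called lower with both (-0.37 and -0.30). AXIN1, the constitutive paralog of AXIN2, was called lower with shRNA #1 (-0.28, adjusted p = 0.00872 from limma) and higher with shRNA #2 (0.62, adjusted p = 3.74e-05 from limma). FBXW11, a ubiquitin ligase subunit that recognizes beta-catenin, had -0.14 with shRNA #1 (adjusted p = 0.0431 from limma) and 0.67 with shRNA #2 (adjusted p = 6.14e-06 from limma). The first of these calls was lost with edgeR (adjusted p = 0.0525), with DESeq2 (adjusted p = 0.0538) and without any single library other than NS shRNA replicate 1 (limma adjusted p = 0.0596 to 0.128).

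TCF7L2, the most highly expressed nuclear WNT factor among the 10 genes, lies on chromosome 10 from 112950247 to 113167678 on the plus strand. Its normalized counts were 950, 977 and 1088 with NS shRNA, 961, 937 and 844 with shRNA #1 and 726, 839 and 717 with shRNA #2. The shRNA #1 libraries overlapped with the control and the shRNA #2 libraries did not. TCF7L2 was 1.32-fold lower with shRNA #2 (log2 fold change -0.40, SE 0.09, limma adjusted p = 0.00172). With shRNA #1 the log2 fold change was -0.14 (95% interval -0.31 to 0.03).

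LEF1, a nuclear factor of the same family, was the only one of the 10 genes called higher with both hairpins. It lies on chromosome 4 from 108047545 to 108168956 on the minus strand. Its normalized counts were 16.4, 11.3 and 18.3 with NS shRNA, 22.4, 52.9 and 62.2 with shRNA #1 and 39.5, 49.0 and 30.0 with shRNA #2. Every library of either hairpin lay above every control library, and shRNA #1 replicate 1 lay closest to the control. LEF1 was 2.68-fold higher with shRNA #1 (log2 fold change 1.42, SE 0.38, limma adjusted p = 0.00834) and 2.48-fold higher with shRNA #2 (1.31, SE 0.28, limma adjusted p = 0.00201). The reads behind these values number 11 to 63 per library, and the level stayed low, at 0.26 ± 0.12 RPKM (SD, n = 3) with shRNA #1 and 0.20 ± 0.05 with shRNA #2. Without shRNA #1 replicate 1 the log2 fold change with shRNA #1 was 1.86 (adjusted p = 4.85e-04 from limma).

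Of the 13 nuclear factors, 12 were tested. With shRNA #1, 6 were called higher and CTNNBIP1 and TLE3 lower (median log2 fold change 0.25). With shRNA #2, LEF1, TLE1, PYGO1 and TLE2 were called higher (33.3%, beside 33.5% of all genes) and TCF7L2 lower (8.3%, beside 33.4%). The median was 0.01. Beside LEF1, those called higher with both hairpins were TLE1, a co-repressor of TCF and LEF proteins (0.41 and 0.62), and PYGO1, a co-activator of beta-catenin (0.44 and 0.45).

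**Figure D4:**
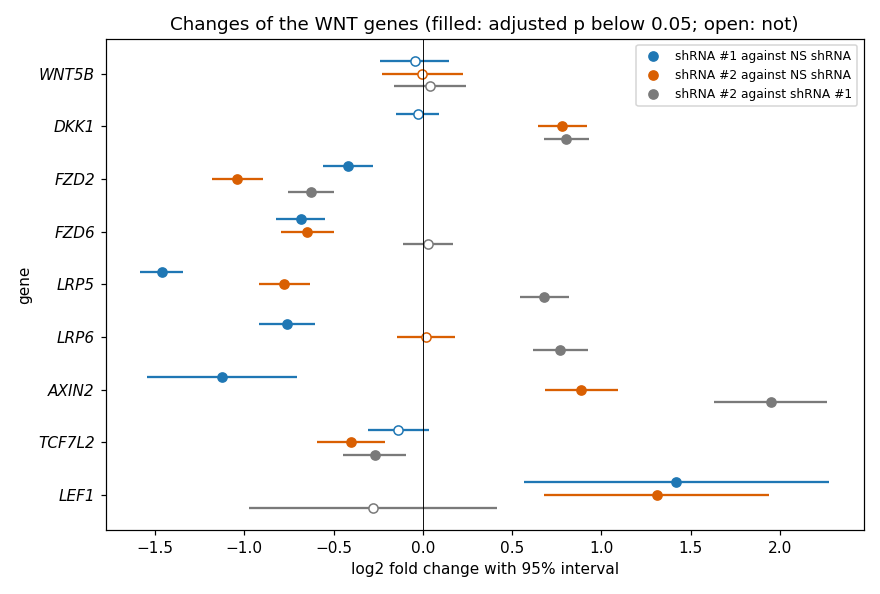
Log2 fold change of the 9 tested genes with its 95% interval in the 3 comparisons, filled where the adjusted p was below 0.05. AXIN2 lies at -1.12 with shRNA #1 and 0.89 with shRNA #2, LRP5 lies at -1.46 and -0.78, and WNT5B lies near 0 in each comparison.

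The textbook target genes of beta-catenin were called in both directions with each hairpin. Of the 17 on the list, 13 were tested with shRNA #1. LEF1, TCF7 and MYC were called higher (23.1%, beside 32.8% of all genes) and AXIN2, SP5 and TNFRSF19 lower (23.1%, beside 33.3%). The median log2 fold change was -0.03, beside 0.00 over all genes. With shRNA #2, 12 were tested. Called higher were 7 (58.3%, beside 33.5% of all genes), namely AXIN2, LEF1, DKK1, RNF43, ZNRF3, CCND1 and MYC. SP5, NOTUM and TNFRSF19 were called lower (25.0%, beside 33.4%), and the median was 0.37, beside 0.01 over all genes. SP5, a transcription factor induced by WNT signals, was called lower with both hairpins (-1.58 and -0.83), as was TNFRSF19, a receptor of the tumor necrosis factor family (-0.42 and -0.70). MYC, the growth regulator, was called higher with both (1.40 and 0.32). AXIN2, LEF1 and DKK1 are on this list too, so it holds 3 of the 10 genes.

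The planar polarity and WNT5A route list, through which Frizzled signals reach the cytoskeleton, had 14 genes, of which 11 were tested. With shRNA #1, CELSR3 and PTK7 were called higher and 7 genes lower (median log2 fold change -0.47). The median with shRNA #2 was -0.03. ROR1 and RYK were called higher (18.2%, beside 33.5% of all genes) and 5 genes lower (45.5%, beside 33.4%). PTK7 was among those 5, and the others, called lower with both hairpins, were the atypical cadherins CELSR2 (-1.72 and -1.01) and CELSR1 (-0.93 and -1.53), the membrane protein VANGL1 (-0.88 and -0.78) and the small GTPase RHOU (-0.77 and -0.43). Over all 111 genes of the 9 lists, 78 were tested with shRNA #1, with 18 (23.1%) called higher and 29 (37.2%) lower, beside 32.8% and 33.3% of all genes. With shRNA #2, 76 were tested, with 24 (31.6%) called higher and 22 (28.9%) lower, beside 33.5% and 33.4% of all genes.

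**Figure D5:**
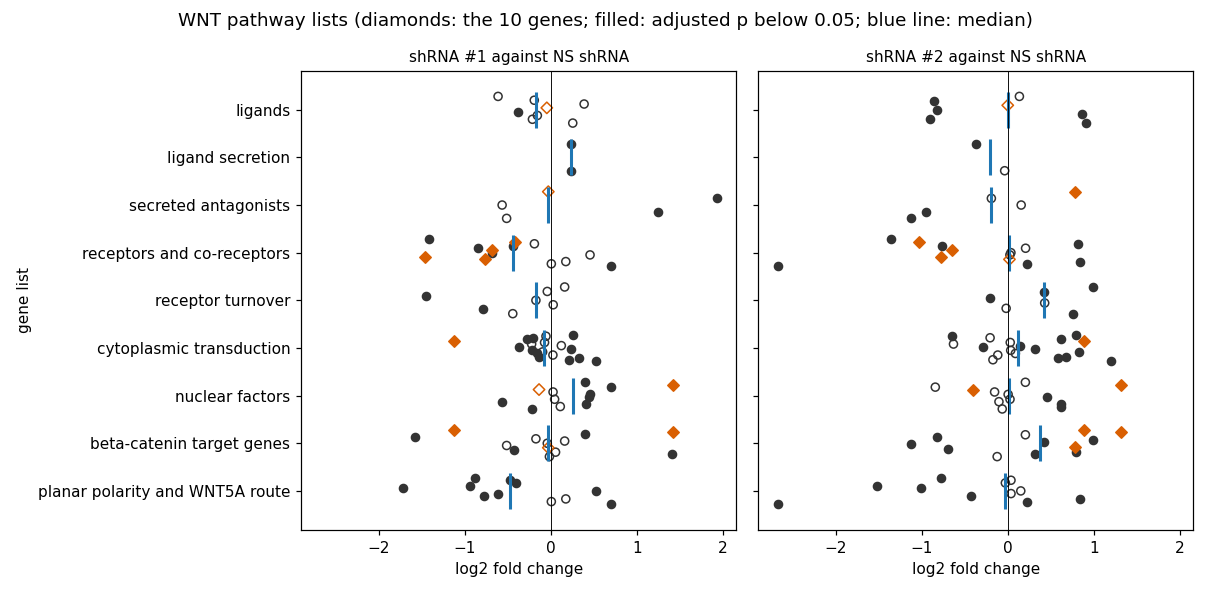
Log2 fold change of the tested genes of the 9 WNT pathway lists with shRNA #1 (left) and shRNA #2 (right) against NS shRNA; diamonds are the named WNT genes, filled symbols passed an adjusted p of 0.05 and blue lines are list medians. The receptor list has a median of -0.44 with shRNA #1 and 0.02 with shRNA #2.

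The hairpins were then compared with each other on the recovered reads of all 9 libraries with edgeR's quasi-likelihood test, over 14714 genes. Of the 9 genes tested, DKK1, LRP5, LRP6 and AXIN2 were higher with shRNA #2 than with shRNA #1, where 31.1% of all genes were called higher, and FZD2 and TCF7L2 were lower, where 32.1% were called lower. AXIN2 had the largest difference of the 9, 3.86-fold (log2 1.95, standard error 0.14, adjusted p = 4.61e-07 from edgeR). DKK1 differed by 0.80 (adjusted p = 3.43e-07 from edgeR), LRP6 by 0.77 (adjusted p = 2.42e-06 from edgeR) and LRP5 by 0.68 (adjusted p = 2.39e-06 from edgeR) on the log2 scale. FZD2 differed by -0.63 (adjusted p = 3.15e-06 from edgeR) and TCF7L2 by -0.27 (adjusted p = 0.0113 from edgeR). FZD6, WNT5B and LEF1 were not called, with log2 differences of 0.03 (95% interval -0.11 to 0.17), 0.04 (-0.16 to 0.24) and -0.28 (-0.97 to 0.42). For the genes whose groups did not overlap, an exact permutation test of 3 libraries against 3, two-sided, gave p = 0.1, the smallest it allows.

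Among those of the 10 genes with a mean normalized count of 100 or more, LRP5 and AXIN2 moved most, with a mean absolute log2 fold change of 1.12 and 1.01 over both hairpins. The genes with the most similar course over the 9 libraries were sought among 11445 genes by the root mean square difference of log2(CPM + 1), centered on each gene's mean. For LRP5 they were ABCA2 (0.06), AQP3 (0.06) and SORL1 (0.07), with log2 fold changes of -1.56, -1.51 and -1.45 with shRNA #1 and -0.77, -0.85 and -0.81 with shRNA #2. For AXIN2 they were IRX3 (0.12), NDRG2 (0.14) and HS3ST1 (0.14), with -0.89, -0.87 and -0.996 with shRNA #1 and 1.02, 0.72 and 0.80 with shRNA #2.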

How the data were processed

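RNA of 9 libraries (3 per group) was sequenced, and groups were taken from the labels. After trimming with Trimmomatic 0.36, the authors used STAR 2.7.1a for alignment to hg38, HTSeq for counting on UCSC genes and DESeq2 1.28. Another paragraph of the methods names RSEM and edgeR. The libraries were strand-specific. Each deposited table holds, for 26485 genes, the normalized signal of 6 libraries, that is, reads over a size factor of each library. The authors also deposited the mean signal, a log2 fold change with its standard error, a Wald score, a p-value and an adjusted p-value from DESeq2, which were not used. All sample columns were matched, with 0 unmatched. 28 gene symbols read as dates in 1 of the files, and names were taken from the other.

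In each library 100% of values came out as whole reads within 0.1, so reads were recovered. They number 23806003 to 49659106 per library. Genes with few reads are measured least precisely.

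The tools were DESeq2 1.42.0, edgeR 4.0.16 and limma 3.58.1 in R 4.3.3, with scipy 1.17.1 and matplotlib 3.10.9 in Python 3.11.15. limma ran with an intensity trend and a pseudocount of 1, within each table, on genes averaging 10 or more. The hairpins were compared by edgeR with TMM, whose standard error was taken as the log2 ratio over the square root of F. The threshold was an adjusted p of 0.05. Values per library were rescaled over all 9 libraries by median-of-ratios factors. Positions and exon lengths come from GENCODE v44 on hg38, and upstream sequences from RefSeq. The fits were tested on simulated data. The alternatives were pseudocounts of 0.1 and 5, other filters, other scalings, other tools, a replicate block and leaving out each library.

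The 10 genes and the pathway lists were chosen with earlier results of these data known. Named beside the 10 genes were ASAH1, up to 4 genes per list called the same way with both hairpins (largest mean change), genes called in opposite directions, genes that a count of 5 or fewer refers to, and the 3 genes most similar to each of LRP5 and AXIN2.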

Additional observations from a re-analysis of the deposited data

Results flagged for a closer look

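The hairpins differed from each other in 6 of the 9 genes tested, by edgeR's quasi-likelihood test of shRNA #2 against shRNA #1 with an adjusted p below 0.05. Of all 14714 genes, 31.1% were called higher and 32.1% lower in the same test, so this count is near the share over all genes. On the log2 scale, shRNA #2 over shRNA #1 came to 1.95 for AXIN2, 0.80 for DKK1, 0.77 for LRP6, 0.68 for LRP5, -0.63 for FZD2 and -0.27 for TCF7L2. ASAH1 itself was also lower with shRNA #2 than with shRNA #1, by -0.88 on the log2 scale (edgeR adjusted p = 6.82e-08). AXIN2 was the gene among these that lay below the control with shRNA #1 and above it with shRNA #2. Whether the depth of the ASAH1 knockdown bears on these differences was not tested.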

How the results depend on the processing

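Of 27 results for single genes among the 9 tested, 21 kept their direction and their side of the threshold in every alternative run. The other 6 were values near 0 that were not called and changed sign. Upper quartile scaling gave log2 values of -0.028 for LRP6 with shRNA #2, and of -0.053 for FZD6 and -0.041 for WNT5B between the hairpins. Leaving out single libraries gave ranges of -0.148 to 0.012 for WNT5B and -0.069 to 0.0085 for DKK1 with shRNA #1, -0.106 to 0.073 for WNT5B and -0.019 to 0.079 for LRP6 with shRNA #2, and -0.022 to 0.115 for WNT5B and -0.0097 to 0.078 for FZD6 between the hairpins. With a mean of at least 50 required, LEF1 was not tested and 0 of the 10 genes were called higher with shRNA #1. Leaving out each library in turn gave 6, 7 and 6 genes called for shRNA #1, shRNA #2 and the hairpins against each other, as in the full data. The replicate numbers did not pair the samples across all groups. Only 2 of 9 same-number correlations of deviations over 11610 genes exceeded 0.1, from -0.69 to 0.56. Those with NS shRNA ran from -0.69 to -0.16, and those between the hairpins were 0.09, 0.27 and 0.56. Between the hairpins, libraries with different numbers ran from -0.44 to 0.25. Libraries with different numbers reached 0.62 (NS shRNA replicate 3 with shRNA #2 replicate 2). Whether libraries of different groups share another structure was not tested. With a replicate block, 6, 7 and 6 genes were called, and the calls of FBXW11 with shRNA #1 (adjusted p = 0.107) and of LGR4 with shRNA #2 (adjusted p = 0.0974, from limma) were lost. Depth limits WNT5A and LEF1 most.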

Other observations

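The genes in this paragraph were picked after their values had been seen. FZD7, the second Frizzled receptor by level in the control cells, had 3844, 4053 and 3825 normalized counts with NS shRNA, 2439, 2401 and 2451 with shRNA #1 and 4195, 3808 and 4000 with shRNA #2. It thus fell with shRNA #1 (log2 fold change -0.68, adjusted p = 1.69e-06 from limma) and was not called with shRNA #2 (0.03, adjusted p = 0.623 from limma), and its share of the summed Frizzled RPKM was 28.02% in the control, 27.6% with shRNA #1 and 41.1% with shRNA #2. DKK3, a relative of DKK1, had 73.2, 49.3 and 67.6 normalized counts with NS shRNA, 228, 263 and 233 with shRNA #1 and 72.8, 44.2 and 50.3 with shRNA #2, so that it rose with the hairpin with which DKK1 was not called (log2 fold change 1.93, adjusted p = 5.37e-06 from limma). CCND1, the cyclin D1 gene, was 1.73-fold higher with shRNA #2 (adjusted p = 2.42e-07 from limma) and not called with shRNA #1 (adjusted p = 0.255 from limma). CTNNB1, which encodes beta-catenin, had log2 fold changes of -0.16 (adjusted p = 0.0101 from limma) and 0.09 (adjusted p = 0.159 from limma).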
